A study of Mus musculus with 36 samples.

Results

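Immediate early genes are genes that cells switch on within minutes of a stimulus, without first making new protein. Neuronal activity, growth factors and stress all act through calcium, cyclic AMP and MAP kinase signalling on transcription factors that already sit at these genes, such as CREB and the serum response factor. In the hippocampus their RNA is widely used as a record of recent neuronal activity, and their products either regulate later genes, act at synapses or switch the signal off again. The 10 genes described here, chosen as a list of names, were Fos, Fosb, Junb, Egr1, Egr2, Npas4, Nr4a1, Ier2, Arc and Dusp1. All 10 were found among the 36172 genes of the deposited table, and all 10 passed the filter on low counts in every fit.

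Hippocampal RNA came from Cx3cr1-NuTRAP mice of both sexes, in which a tamoxifen-inducible cre under the Cx3cr1 promoter marks ribosomes of microglia and related macrophages with a green fluorescent tag. Every group carried these alleles and had been induced, and no uninduced group was analysed here. Inputs are polyA RNA of the whole hippocampal homogenate. Of these, 10 came from young mice aged 6 months with early induction (5 males, 5 females). Another 12 came from old mice aged 22 months with early induction (5 males, 7 females). The other 7 came from old mice, also aged 22 months, with late induction (2 males, 5 females). Translating ribosome affinity purification (TRAP) pulled the tagged ribosomes down with an antibody, and 7 TRAP libraries from the same 7 old late-induced animals were analysed. The animal numbers in the labels differed between all inputs, so that each input was a separate animal. Sample numbers in the labels ran from S1 to S23 for old early-induced, S25 to S38 for old late-induced and S39 to S57 for young mice. Differences between these groups therefore cannot be told apart from differences along this sample order.

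The libraries held 12.9 to 20.4 M estimated counts. Levels are given as CPM (counts per M counts of the library), scaled between libraries by the trimmed mean of M values (TMM). Cx3cr1 was at 39.9 ± 5.09 CPM in the old late-induced inputs and 688 ± 134 CPM in TRAP (SD, n = 7 each). All 10 neuronal markers examined were detected in every library, and their summed level was 10160 to 12490 CPM in the inputs. No library pair within a group agreed within sampling noise.

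The members fall into 4 roles. Fos and Fosb encode Fos proteins and Junb a Jun protein, which pair to form the transcription factor AP-1. Egr1 and Egr2 encode zinc finger factors, Npas4 a factor induced mainly by calcium entry in neurons, and Nr4a1 an orphan nuclear receptor. Ier2 encodes a small nuclear protein. Arc encodes a synaptic protein that takes part in the removal of AMPA receptors from the membrane. Dusp1 encodes a phosphatase that inactivates MAP kinases and so ends the signal. Junb and Ier2 both lie on chromosome 8 (chr8:84976909-84978748 and chr8:84661331-84662852), and Arc and Nr4a1 both on chromosome 15 (chr15:74669081-74672570 and chr15:101266846-101274794). All 10 are annotated as protein-coding, and none overlaps another annotated gene.

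The 250 bases before the start of 5 members are shown because these members span the range of responses described below, from Egr2 with the largest age difference to Npas4 with a small one, and because their motifs differ. The sequences are RefSeq windows of GRCm38.p6, written 5′ to 3′ on the strand of the gene. Capitals mark matches, on either strand, to the cyclic AMP response element (CRE) TGACGTCA, to its core TGACG, to the TATA box TATAAA, to the EGR site GCGNGGGCG or to the CArG box, the core of the serum response element. A core on the opposite strand reads CGTCA.
Fos, chr12:85473640-85473889, plus strand: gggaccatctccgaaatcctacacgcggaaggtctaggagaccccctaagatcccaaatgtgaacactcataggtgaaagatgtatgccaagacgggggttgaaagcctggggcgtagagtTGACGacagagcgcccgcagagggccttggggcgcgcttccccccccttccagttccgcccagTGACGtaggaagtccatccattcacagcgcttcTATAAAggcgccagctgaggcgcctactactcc
Egr2, chr10:67537619-67537868, plus strand: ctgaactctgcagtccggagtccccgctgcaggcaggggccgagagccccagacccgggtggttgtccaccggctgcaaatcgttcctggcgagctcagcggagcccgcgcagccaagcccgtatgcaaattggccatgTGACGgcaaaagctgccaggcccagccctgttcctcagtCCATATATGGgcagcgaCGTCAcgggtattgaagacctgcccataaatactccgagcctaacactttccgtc
Npas4, chr19:4989972-4990221, minus strand: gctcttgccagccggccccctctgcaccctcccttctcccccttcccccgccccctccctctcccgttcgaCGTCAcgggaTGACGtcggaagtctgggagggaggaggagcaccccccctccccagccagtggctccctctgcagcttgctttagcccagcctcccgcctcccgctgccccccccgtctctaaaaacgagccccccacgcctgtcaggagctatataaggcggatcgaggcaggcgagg
Nr4a1, chr15:101266596-101266845, plus strand: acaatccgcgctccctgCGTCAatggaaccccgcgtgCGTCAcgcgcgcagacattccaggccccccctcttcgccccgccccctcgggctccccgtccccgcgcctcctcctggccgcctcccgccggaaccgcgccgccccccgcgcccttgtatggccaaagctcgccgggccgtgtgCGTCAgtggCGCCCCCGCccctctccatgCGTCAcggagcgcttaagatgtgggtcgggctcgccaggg
Dusp1, chr17:26508473-26508722, minus strand: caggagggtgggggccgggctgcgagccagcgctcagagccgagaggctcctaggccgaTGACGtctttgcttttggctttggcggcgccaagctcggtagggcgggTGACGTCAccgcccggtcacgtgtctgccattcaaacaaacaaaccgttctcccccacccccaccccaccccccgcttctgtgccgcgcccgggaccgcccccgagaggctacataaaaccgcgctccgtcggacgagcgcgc

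Windows from 250 bases before to 50 after a start were available for 7 members (Fos, Fosb, Junb, Egr2, Npas4, Nr4a1 and Dusp1), 11 windows in all because Egr2 has 5 listed starts. Egr1, Ier2 and Arc were not searched. The CRE core TGACG was found in a window of all 7 members, against 20.8% of all 32851 windows and 23% of the 27025 genes with a window. Nr4a1 held 4 cores, with first bases from -233 to -40, and Fos held 2, at -129 and -66. The whole CRE TGACGTCA was found in Dusp1 alone among the 7, at -143, against 1.79% of all windows, and it contains the core on both strands. The CArG box was found in Egr2 alone, at -72 in the window shown, against 1.63% of all windows. The EGR site GCGNGGGCG was found in Fosb and Nr4a1 (5.55% of all windows). The letters TATAAA of the TATA box were found in Fos at -33 and in Junb at 1 (13.6% of all windows). The Junb match thus does not lie before the start. The AP-1 site TGANTCA, present in 7.81% of all windows, was not found in these 11. The core and the whole element overlap by construction, and a match describes letters, not binding.

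The members differed widely in level. Exon length was taken as all GENCODE exons of a gene merged. For Junb (2301 bases), Egr1 (4484) and Dusp1 (3311) it exceeds the span of the gene in the deposited coordinates. The order of close values, such as those of Arc and Junb, therefore depends on the annotation used. Per kilobase of this exon length, the mean level in the young inputs was highest for Arc (37.6 CPM per kilobase), Junb (31.2), Egr1 (23.3) and Nr4a1 (18). Dusp1 (6.02), Fos (5.36), Ier2 (4.43), Fosb (3.51) and Npas4 (2.16) were lower, and Egr2 (0.518) was lowest. Egr2 therefore rested on few counts, 13 to 48 per young library, while Arc had 1350 to 3010.

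The first comparison asked how the members differ between young and old hippocampus when induction was early. Of the 10 members, 9 were higher in the 12 old early-induced inputs than in the 10 young inputs, where 13% of the 14948 genes tested were called higher (edgeR quasi-likelihood test, Benjamini-Hochberg adjusted p under 0.05 over all genes). Their fold changes ran from 1.44 for Fosb to 3.73 for Egr2. Arc did not pass the test. The median log2 fold change over the 10 members was 0.83, and over all genes it was 0.01. In whole-tissue RNA, more expressing cells and more RNA per cell cannot be told apart.

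The second comparison, of the 7 old late-induced with the same 10 young inputs, had 9 members higher, against 17% of all genes, with a median log2 fold change of 0.87 over the members and 0.01 over all genes. Here Arc passed and Npas4 did not. Both comparisons used the same young libraries and are therefore not independent of each other.

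**Figure D1:**
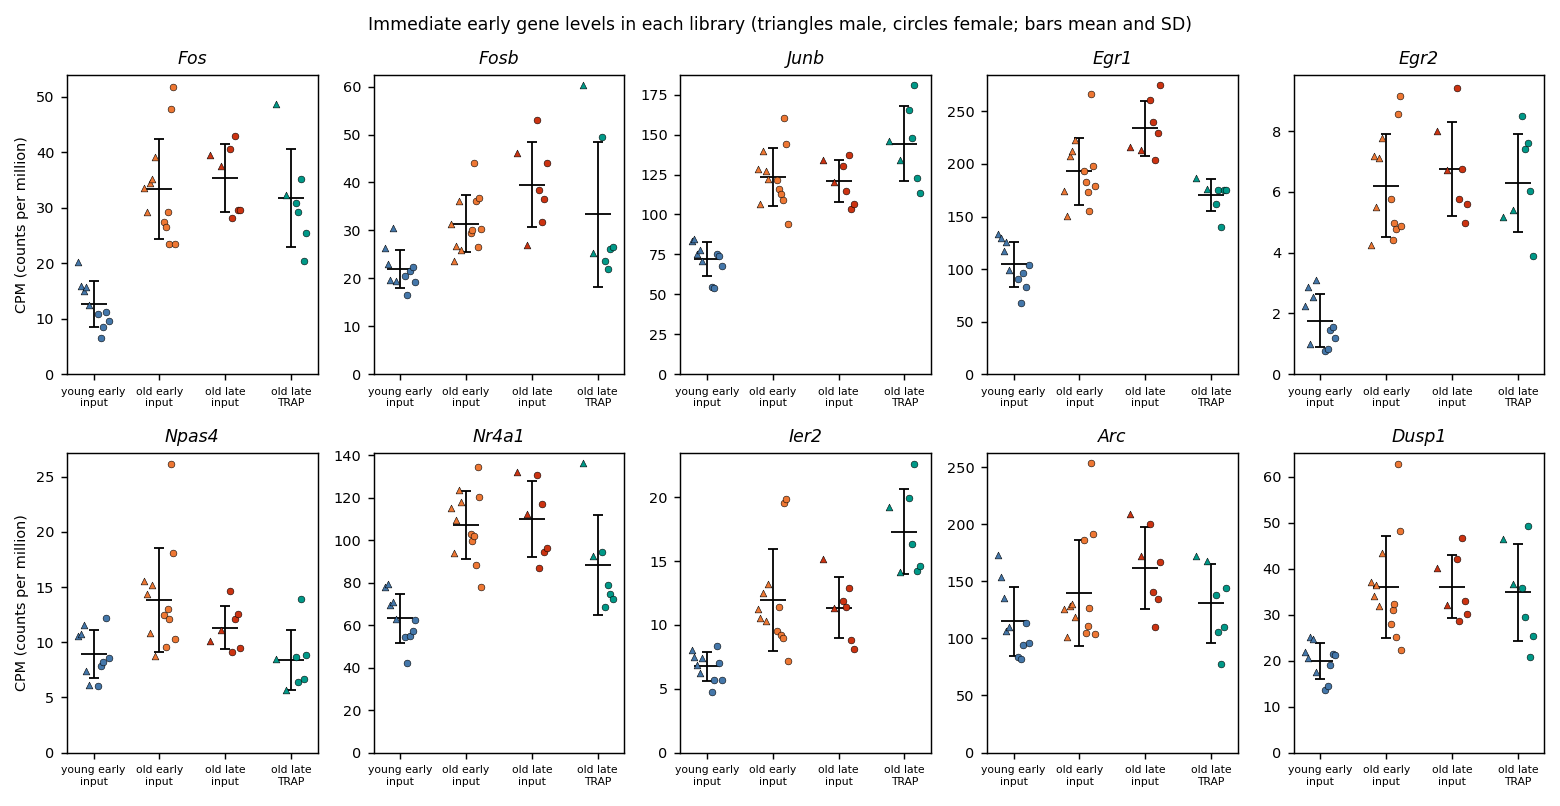
Level of each immediate early gene in each library, in CPM on a linear axis from 0, by group; triangles are males, circles females, and bars give the mean and SD. Fos, Junb, Egr1 and Egr2 in both old input groups lie above every young input, while Arc and Npas4 overlap.

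Among the AP-1 genes, Fos spanned 6.57 to 20.3 CPM in the young inputs (median 11.8), 23.4 to 51.7 in the old early-induced (median 31.3) and 28.1 to 42.9 in the old late-induced inputs (median 37.5). All 19 old inputs thus lay above the highest young input. The log2 fold change of Fos was 1.47 ± 0.15 (SE) in old early-induced against young inputs (edgeR adjusted p 1.84e-08, n = 12 and 10) and 1.59 ± 0.16 in old late-induced against young inputs (adjusted p 1.97e-08, n = 7 and 10).

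Junb, at 53.7 to 84.8 CPM in the young inputs (median 74.8), was at 94.0 to 160 in the old early-induced (median 122) and 104 to 137 in the old late-induced inputs (median 120). Again no old input reached down to the young range. Its log2 fold changes were 0.81 ± 0.08 and 0.80 ± 0.09 (SE; edgeR adjusted p 1.32e-08 and 1.01e-07).

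Fosb changed less. It ran from 16.5 to 30.5 CPM in the young inputs (median 21), from 23.5 to 44.1 in the old early-induced (median 30.2) and from 26.9 to 53 in the old late-induced inputs (median 38.4), so that all 3 groups overlapped. Fosb rose by 0.53 ± 0.11 (log2, SE; edgeR adjusted p 0.000986) with early and by 0.86 ± 0.13 (adjusted p 9.01e-06) with late induction. With males alone its log2 fold changes were 0.28 (adjusted p 0.242) and 0.64 (adjusted p 0.0648).

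Of the zinc finger genes, Egr2 had the largest age difference of all members. It was at 0.775 to 3.09 CPM in the young inputs (median 1.52), 4.26 to 9.17 in the old early-induced (median 5.64) and 4.99 to 9.43 in the old late-induced inputs (median 6.73). The lowest old input was thus above the highest young one. Its log2 fold changes were 1.90 ± 0.20 and 2.07 ± 0.22 (SE; edgeR adjusted p 4.57e-08 and 3.54e-08), 3.73-fold and 4.20-fold.

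Egr1, the most abundant member in CPM in both old groups, rose from 67.4 to 133 CPM in the young inputs (median 102) to 151 to 267 in the old early-induced (median 188) and 204 to 275 in the old late-induced inputs (median 230). Here too neither old group overlapped the young one. The log2 fold changes were 0.91 ± 0.10 and 1.22 ± 0.11 (SE; edgeR adjusted p 4.96e-08 and 2.3e-09).

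Nr4a1 was at 42.2 to 79.6 CPM in the young inputs (median 62.8), 77.8 to 135 in the old early-induced (median 106) and 87.2 to 132 in the old late-induced inputs (median 112). A single old early-induced input, the lowest, lay within the young range. Nr4a1 rose by 0.80 ± 0.09 and 0.88 ± 0.10 on the log2 scale (SE; edgeR adjusted p 5.83e-08 and 7.7e-08).

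Npas4, like Junb and Dusp1, had its highest median in the old early-induced inputs. It was at 6.02 to 12.2 CPM in the young inputs (median 8.42), 8.75 to 26.2 in the old early-induced (median 12.7) and 9.13 to 14.7 in the old late-induced inputs (median 11.1). The old early-induced mean was raised by a library at 26.2 CPM, with the next at 18.1. Npas4 rose by 0.63 ± 0.16 with early induction (log2, SE; edgeR adjusted p 0.00294), and its difference of 0.34 ± 0.18 with late induction did not pass (adjusted p 0.14). Without old early replicates 10 and 11, which enter the shared estimate of spread, the late difference was 0.37 with an adjusted p of 0.0449. With males alone the early difference was 0.49 (adjusted p 0.0869).

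Ier2 was at 4.71 to 8.36 CPM in the young inputs (median 6.94), 7.16 to 19.8 in the old early-induced (median 10.9) and 8.12 to 15.2 in the old late-induced inputs (median 11.4). In each old group the lowest library overlapped the young range. Ier2 rose by 0.85 ± 0.15 and 0.79 ± 0.17 (log2, SE; edgeR adjusted p 0.000103 and 0.0006).

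Dusp1, the phosphatase that opposes MAP kinase signalling, was at 13.5 to 25.2 CPM in the young inputs (median 20.9), 22.3 to 62.7 in the old early-induced (median 33.1) and 28.5 to 46.6 in the old late-induced inputs (median 33). The late-induced group lay wholly above the young group, while 2 old early-induced libraries did not. Its log2 fold changes were 0.87 ± 0.14 and 0.90 ± 0.16 (SE; edgeR adjusted p 3.23e-05 and 7.07e-05).

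Arc, the synaptic member, overlapped between all groups. It was at 82.1 to 173 CPM in the young inputs (median 109), 101 to 254 in the old early-induced (median 126) and 110 to 209 in the old late-induced inputs (median 167). The difference of 0.32 ± 0.15 with early induction did not pass (log2, SE; edgeR adjusted p 0.122), whereas Arc rose by 0.54 ± 0.17 with late induction (adjusted p 0.0161). That call was lost without old late replicate 1, the highest of its group (0.46, adjusted p 0.0594), without young replicates 5 and 6 (0.43, adjusted p 0.0673) and in males alone (0.51, adjusted p 0.0535). With early induction Arc was called in females alone (0.72, adjusted p 0.0272) and had the opposite sign in males alone (-0.16, adjusted p 0.365).

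Groups that do not overlap at all, with every old input above every young input, were found for 4 members with early induction (Fos, Junb, Egr1 and Egr2), against 0.85% of all genes. With late induction they were found for 6 (also Nr4a1 and Dusp1), against 2.4% of all genes. Both counts concern members that also passed the test.

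**Figure D2:**
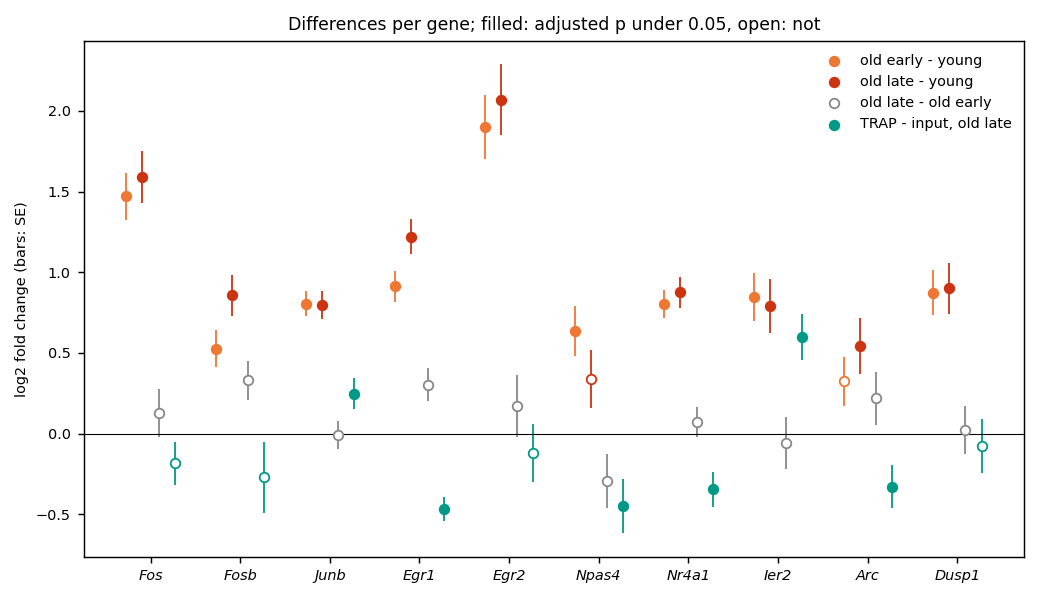
Log2 fold change of each member in 4 comparisons, with bars for the SE; filled points passed the test (adjusted p under 0.05) and open points did not. Egr2 and Fos have the largest age differences, old late-induced against old early-induced points are all open, and the TRAP points lie on both sides of 0.

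The third comparison asked whether the age at induction changed the members in old animals. None of the 10 was called between the 7 old late-induced and the 12 old early-induced inputs, where 0.0334% of all genes, 5 in number, were called by edgeR. DESeq2 called 58 genes, and none of them was a member. At an unadjusted p under 0.05 there were 2 members, Egr1 with 0.30 ± 0.10 (log2, SE; adjusted p 0.241) and Fosb with 0.33 ± 0.12 (adjusted p 0.278), against 11.6% of all genes. The approximate 95% intervals (from the SE) of the log2 difference were narrow for Junb, from -0.18 to 0.16, and wide for Npas4, from -0.63 to 0.04. For Fos the interval ran from -0.17 to 0.42 and for Egr2 from -0.21 to 0.55, for Fosb from 0.09 to 0.57 and for Arc from -0.11 to 0.54. The age difference found with early induction lay inside this interval for Fosb and Arc and outside it for the other 8 members.

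The RNA of cell type markers differed with age too. Microglial markers were higher in both old groups for 8 of 8 genes, with a summed level (in CPM) of 298 to 352 in young inputs, 378 to 454 with early induction and 401 to 530 with late induction in old inputs. The median log2 fold change of these 8 was 0.35 with early induction (0.17 to 0.91) and 0.52 with late induction (0.23 to 1.19). Of 10 neuronal markers, 1 was higher and 2 were lower with early induction, and 5 were lower with late induction. Their summed level overlapped, at 11250 to 12490 (CPM) in the young, 10160 to 12270 in the old early-induced and 10650 to 11540 in the old late-induced inputs. Oligodendrocyte markers were higher for 5 of 5 in both old groups, and astrocyte markers for 2 of 5, Gfap (0.84 and 1.03 on the log2 scale) and Aldh1l1 (0.21 and 0.32). Of the endothelial markers 1 of 6 was higher in both, Cldn5 (0.81 and 0.72), and of the mural cell markers 2 of 4 tested, among them Pdgfrb (0.32 and 0.27). Blood markers, of which 3 of 5 were matched, summed to 96.5 to 223 CPM in the young (median 128), 83.8 to 1414 in the old early-induced (median 162) and 183 to 449 in the old late-induced inputs (median 336), and 1 and 3 of the 3 were higher. The 1414 was that of old early replicate 5, with the next library at 255. Choroid plexus markers spanned 47.2 to 4099 CPM across the inputs. The part of these lists in the members' differences was not tested.

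The sex of the animals was examined because young males and young females separated in 2 members. The young males were samples S39, S41, S43, S45 and S57 and the young females S47 to S55. Sex thus largely followed sample order in this group, which also limits the sex comparisons below. The mean standardised level over the members was 0.41 to 1.09 in males S39 to S45 and -0.06 in male S57. It was -1.42 to 0.10 in the females. The part of sample order was not tested. Fos was at 20.3, 16.0, 14.9, 15.8 and 12.4 CPM in the 5 young males and at 10.8, 6.57, 8.43, 11.2 and 9.56 CPM in the 5 young females. Nr4a1 was at 63.1 to 79.6 CPM in young males and 42.2 to 62.5 in young females, and neither gene overlapped between the sexes. These were 2 of the 10 members, against 0.937% of all genes with every young male above every young female, and they were named after their values were seen. Egr1 (98.9 to 133 against 67.4 to 104 CPM) and Arc (107 to 173 against 82.1 to 113 CPM) overlapped slightly. In the old early-induced inputs the sexes overlapped in all 10 members, with Fos at 29.2 to 39.1 CPM in males and 23.4 to 51.7 CPM in females.

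No member was called between the sexes over all 29 inputs by edgeR, against 0.174% of all genes called. At an unadjusted p under 0.05 there were 3 members, Nr4a1 (0.25 ± 0.07 on the log2 scale, SE, higher in males; adjusted p 0.237), Fos (0.32 ± 0.13, adjusted p 0.362) and Egr2 (0.36 ± 0.17, adjusted p 0.438), against 10.9% of all genes. DESeq2 called 67 genes. Without old early replicates 10 and 11, both female, Fos (0.47, adjusted p 0.0144) and Nr4a1 (0.31, adjusted p 0.0399) were called higher in males.

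Whether the age difference itself depended on sex was tested by the interaction in the 22 early-induced inputs. All 10 members had a smaller age difference in males than in females, by -0.24 to -0.94 on the log2 scale, with a median of -0.37 against 0.00 over all genes. None was called (0.0% of the 14953 genes tested were called by edgeR, with a smallest adjusted p of 0.222, and 23 genes by DESeq2). At an unadjusted p under 0.05 there were 5 members, Arc (-0.88 ± 0.26, SE), Fos (-0.70 ± 0.27), Egr2 (-0.94 ± 0.37), Egr1 (-0.44 ± 0.17) and Fosb (-0.46 ± 0.19), against 15.4% of all genes. Since the members correlate with each other, their shared sign is not 10 separate observations. Without old early replicates 10 and 11 the interaction was 0.11 for Dusp1, 0.13 for Ier2 and 0.06 for Npas4, with the sign reversed and none called. Without young replicates 5 and 6, both female, no gene was called either. In that fit 1414 genes had an unadjusted p under 0.05 by edgeR, against 2301 with all 22 inputs.

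A few libraries were high or low in most members. Old early replicate 10 was the highest of its 12 libraries for 6 members and replicate 11 for 3, for example at 47.7 and 51.7 CPM of Fos and at 19.6 and 19.8 CPM of Ier2. Young replicate 6 was the lowest of its group for 6 members and young replicate 5 for the other 4. The summed neuronal markers of old early replicates 10 and 11 (11760 and 12200 CPM) and their microglial markers (439 and 401 CPM) were inside the range of the other 10. Replicate 10 was the highest of the 12 in its oligodendrocyte sum (5036 CPM, next 4639) and its astrocyte sum (3401 CPM, next 3275). Young replicates 5 and 6 had the lowest neuronal sums of the young inputs (11250 and 11300 CPM) and choroid plexus sums of 2242 and 3082 CPM, the second of them the highest of the group. Leaving out either pair, a choice made after seeing the data, left 9 members called higher with early induction. With late induction 10 members were called without old early replicates 10 and 11, and 8 without young replicates 5 and 6.

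The spread between animals of a group was larger for the members than for most genes. The SD of log2 CPM of a member exceeded that of 80.1% of genes (median over the 10) in the young, 80.9% in the old early-induced, 72.5% in the old late-induced inputs and 82.3% in TRAP. In the young inputs Egr2 had an SD of 0.69 and Fos of 0.48, above 96.5% and 90.7% of genes. Egr1 and Junb were the least variable members in the old late-induced inputs, at 0.16 each, near the median of 0.155 over all genes.

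Most pairs of members were positively correlated across the animals of a group. Pearson correlations of log2 CPM were computed for the 45 pairs in each of the 3 input groups, 135 in all, with permutation tests over animals (exact for 7 animals, 100000 resamples otherwise) and Benjamini-Hochberg adjustment over the 135. In the 10 young inputs all 45 pairs were positive, with a median r of 0.64, and 11 were called. In the 12 old early-induced inputs 37 were positive, with a median r of 0.64, and 15 were called. In the 7 old late-induced inputs 36 were positive, with a median r of 0.45, and 3 were called. The median over all pairs of genes was 0.00 in each of the 3 groups, with 50.0%, 49.8% and 49.9% of these pairs positive. The share of all pairs of genes that would be called is not given here. By Spearman's rho, 7, 11 and 0 pairs were called, with medians of 0.61, 0.56 and 0.39.

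**Figure D3:**
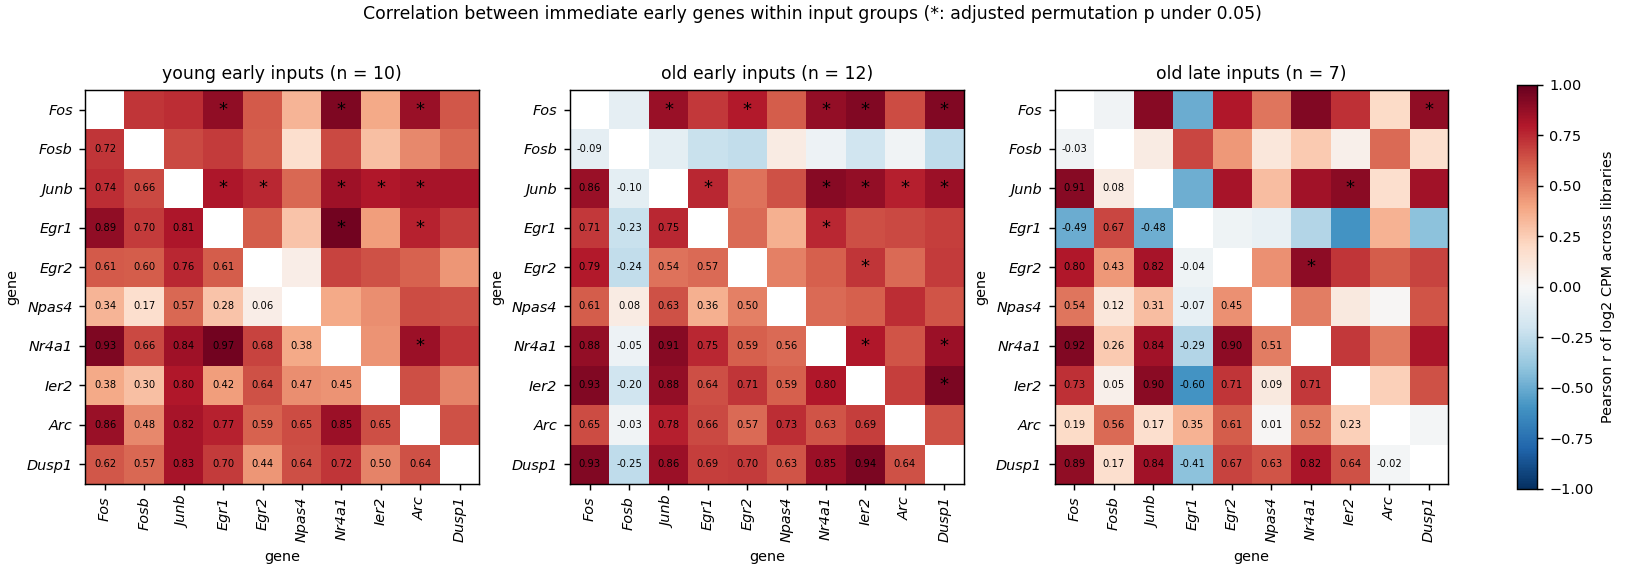
Pearson r of log2 CPM for each pair of members within each input group; numbers stand below the diagonal, colours run from -1 (blue) to 1 (red), and stars above the diagonal mark an adjusted permutation p under 0.05. Fosb is pale or blue in the old early-induced inputs, as is Egr1 with several members in the old late-induced inputs.

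Some pairs were high in every group. Junb and Ier2 were the only pair called in all 3 groups, with r of 0.80 in the young (permutation p 0.0093, adjusted 0.0448, rho 0.72), 0.88 in the old early-induced (permutation p 0.00026, adjusted 0.00439, rho 0.80) and 0.90 in the old late-induced inputs (exact permutation p 0.00635, adjusted 0.0354, rho 0.89). Fos and Nr4a1 had r of 0.93, 0.88 and 0.92 in the same order, the last not called. Egr1 and Nr4a1 had the highest value in the young inputs, 0.97 (permutation p 8e-05, adjusted 0.00225, rho 0.94), and Ier2 and Dusp1 in the old early-induced inputs, 0.94 (permutation p 4e-05, adjusted 0.00225, rho 0.88). In the old late-induced inputs Fos and Dusp1 (0.89) and Egr2 and Nr4a1 (0.90) were also called.

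Fosb and Egr1 had median r below 0 with the other members in one old group each. Fosb had a median r of 0.60 with the other 9 in the young inputs and -0.10 in the old early-induced inputs, and none of its pairs was called in any group. Egr1 had a median r of 0.70 in the young, 0.66 in the old early-induced and -0.29 in the old late-induced inputs, where its r with Ier2 was -0.60 (adjusted p 0.249, permutation). The differences in r between groups were not tested. Npas4 had no pair called in any group.

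The correlations were also computed without the outlying animals and within the sexes. Without the 2 libraries farthest from the group median on the first gene of each pair, the median r was 0.48, 0.43 and 0.38, and Junb with Ier2 had 0.54, 0.73 and 0.90. Without the 2 libraries farthest from the group median of the members' mean level, the median r was 0.44 in the young, 0.34 in the old early-induced and 0.06 in the old late-induced inputs, the last over 5 animals. With the mean of each sex removed, it was 0.46, 0.70 and 0.56, lower than with sex in the young inputs and higher in both old groups.

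Of the 13043 other genes with a mean log2 CPM above 1, those that varied most like the members across the 29 inputs, after the means of group and sex were removed, were Btg2 (r of 0.74 with the mean of the members' standardised residuals), Irf2bpl (0.74), Prickle1 (0.73), Nr3c1 (0.71), Pik3r4 (0.70), Bche (0.67), D130020L05Rik (0.67), Ankrd34b (0.67), Adrb1 (0.66) and Midn (0.66). The median over these 13043 genes was 0.02. Among the members themselves, which are part of that mean, Nr4a1 (0.92), Junb (0.92) and Fos (0.90) were closest to it and Fosb (0.41) farthest. Genes alike across animals differed in their age differences. Btg2 rose by 0.79 with early induction (edgeR adjusted p 0.0015), Pik3r4 fell by 0.19 on the log2 scale (adjusted p 0.00154), and Prickle1 was at 0.02 (adjusted p 0.717).

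The last comparison set ribosome-bound RNA of the Cx3cr1 lineage against the input of the same 7 animals. Of the 10 members, 2 were higher in TRAP and 4 lower, while 30.4% of the 14596 genes tested were called higher and 28.8% lower. All 10 log2 differences lay between -0.47 and 0.60, while the 8 microglial markers were higher by 3.89 to 4.33. The 10 neuronal markers lay between -0.49 and 0.16, with 4 called lower, and summed to 8700 to 10670 CPM in TRAP. RNA of neurons was present in the pulldown at levels near those of the input, and its part in the members' TRAP levels was not tested.

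**Figure D4:**
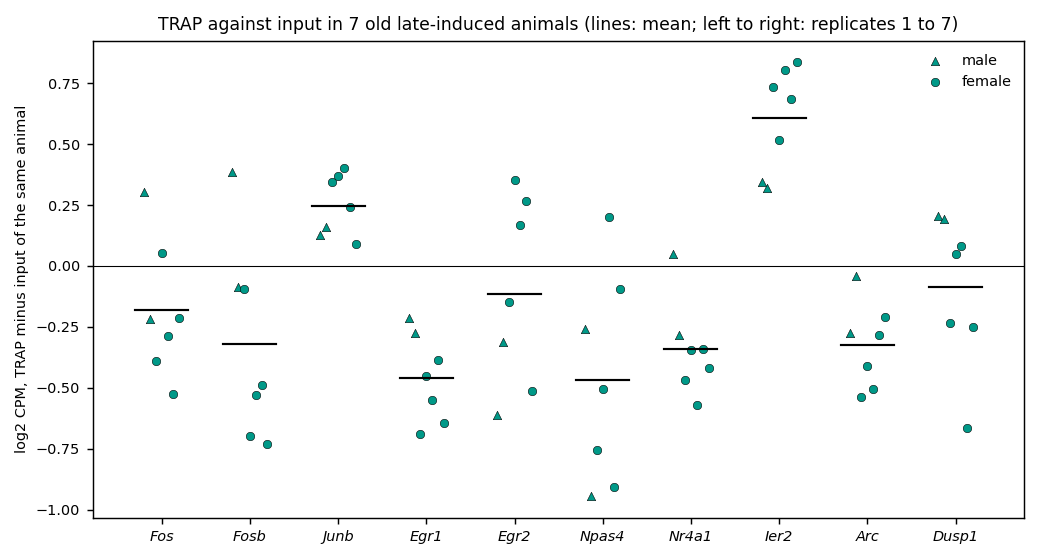
Log2 CPM in TRAP minus that in the input of the same animal, for each member in the 7 old late-induced animals; triangles are males, circles females, and lines give the mean. Junb and Ier2 are above 0 and Egr1 and Arc below 0 in all 7 animals.

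Ier2 had the largest enrichment. It was at 14.1 to 22.6 CPM in TRAP (median 16.4) and 8.12 to 15.2 CPM in the inputs (median 11.4), and was higher in TRAP in 7 of 7 animals. The log2 fold change was 0.60 ± 0.14 (SE; edgeR adjusted p 0.0017). Junb was at 114 to 181 CPM in TRAP (median 146) and 104 to 137 CPM in the inputs (median 120), also higher in 7 of 7 animals, with 0.25 ± 0.10 (adjusted p 0.0361). The call of Junb was lost with upper quartile scaling (0.10, adjusted p 0.356), with scaling by library size (0.14, adjusted p 0.189) and in females alone (0.30, adjusted p 0.0587). It was also lost without any of 8 libraries, input replicates 2, 4, 6 and 7 and TRAP replicates 1, 3, 4 and 5 (highest adjusted p 0.116, without TRAP replicate 5).

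Egr1 and Npas4 had the lowest log2 differences of the members. Egr1 was at 140 to 186 CPM in TRAP (median 175), below every input of 204 to 275 CPM (median 230), a separation found in 10.5% of all genes. Egr1 fell by 0.47 on the log2 scale (SE 0.07, edgeR adjusted p 4.14e-05), in 7 of 7 animals. Arc fell by 0.33 (SE 0.13, adjusted p 0.0449), also in 7 of 7 animals, and Nr4a1 fell by 0.35 (SE 0.11, adjusted p 0.012) in 6 of 7. Npas4 was at 5.71 to 14 CPM in TRAP (median 8.46) and fell by 0.45 (SE 0.17, adjusted p 0.0296) in 6 of 7 animals.

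The TRAP fit had a sex term and did not pair each TRAP library with the input of its animal. In this unpaired fit the calls of Arc and Npas4 were fragile. Arc lost its call without any of 9 libraries, input replicates 1, 3, 6 and 7 and TRAP replicates 1, 2, 4, 5 and 6 (highest adjusted p 0.114, without input replicate 3). It was also lost without the sex term (adjusted p 0.117), without the low-count filter (adjusted p 0.0654) and in females alone (adjusted p 0.0771). Npas4 lost its call without any of 6 libraries, input replicates 2, 3 and 6 and TRAP replicates 2, 4 and 6 (highest adjusted p 0.0692, without input replicate 3), and in females alone (adjusted p 0.129). Nr4a1 lost its call without the sex term (adjusted p 0.053). With the animal as a replicate block, all 6 calls held and Fosb was also lower, by -0.32 (adjusted p 0.0195).

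Fos, Fosb, Egr2 and Dusp1 did not pass in the unpaired fit. Fos was at 20.5 to 48.7 CPM in TRAP (median 30.9; -0.18 ± 0.13, SE, edgeR adjusted p 0.246), and with upper quartile scaling it was called lower (-0.33, adjusted p 0.0409). Egr2, at 3.89 to 8.50 CPM (median 6.03; -0.12 ± 0.18, adjusted p 0.587), and Dusp1, at 20.8 to 49.3 CPM (median 35.8; -0.07 ± 0.17, adjusted p 0.719), were within the range of the inputs in most animals. Fosb ranged from 22.0 to 60.3 CPM (median 26; -0.27 ± 0.22, adjusted p 0.3), with TRAP replicate 1 highest. Without that library Fosb was called lower (-0.48, adjusted p 0.0396).

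The correlation between the level in TRAP and the level in the input of the same animal had a median r of 0.73 over the members and 0.32 over all genes. Over the 10 exact permutation tests, adjusted by Benjamini-Hochberg, 2 members were called: Arc, with r of 0.91 (exact permutation p 0.00714, adjusted 0.0357; rho 0.86, exact permutation p 0.0238, adjusted 0.119; n = 7), and Nr4a1, with r of 0.83 (exact permutation p 0.00476, adjusted 0.0357; rho 0.93, exact permutation p 0.00675, adjusted 0.0675; n = 7). Without the 2 animals farthest from the median input these were 0.74 and 0.78. The share of all genes that would be called in this way is not given here. Junb had r of 0.86 (adjusted exact permutation p 0.0503), and Npas4 (0.23) and Egr1 (0.25; rho -0.11) the lowest values.

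Genes near the members in the same response were examined in 4 lists. Of 17 other rapid transcription factors, 16 were tested, all but Fosl1, which was too low. With early induction 8 were higher and 0 lower (median log2 fold change 0.18), and with late induction 11 were higher and 0 lower (median 0.28). Over all genes, 13% and 17% were higher and 12.6% and 17.5% lower in these comparisons. Atf3, a stress-induced factor, rose most, by 1.30 ± 0.20 (SE, log2; edgeR adjusted p 2.04e-05) and 1.83 ± 0.22 (adjusted p 3.8e-07), followed by Klf4 (1.08 and 1.22). Klf2 rose by 0.74 and 0.77 and Egr4, a relative of Egr1, by 0.64 and 0.81.

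Of 13 feedback regulators, which switch signals off again, 5 were higher and 0 lower with early induction. With late induction 6 were higher and 0 lower. The medians were 0.26 and 0.34. Over all genes 13% and 17% were higher. Dusp6, a phosphatase of ERK, was at 34.3 to 49.8 CPM in the young inputs. It was at 53.3 to 83.4 in the old early-induced and 50.1 to 71.7 in the old late-induced inputs, without overlap with the young. Such a separation, with old higher, was found in 0.85% and 2.4% of all genes. Dusp6 rose by 0.66 ± 0.07 (SE; edgeR adjusted p 1.83e-07) and 0.52 ± 0.09 (adjusted p 2.94e-05). Btg2, an antiproliferative gene, rose by 0.79 and 0.63, and Sik1, a kinase that restrains CREB coactivators, by 0.51 and 0.70.

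**Figure D5:**
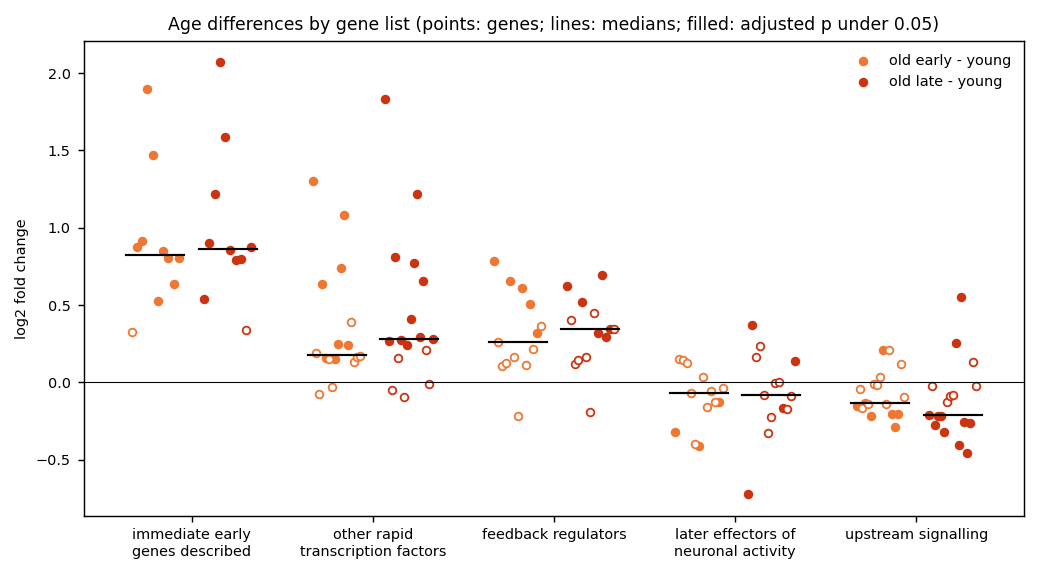
Log2 fold change of single genes with age, for the 10 members and 4 lists of related genes, with early (orange) and late (red) induction; lines are medians and filled points passed the test. The medians of the later effectors and of upstream signalling lie below 0 and those of the other 3 groups above 0.

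Later effectors carry out responses to neuronal activity. Of 13, 0 were higher and 3 lower with early induction, Nptx2 (-0.41 ± 0.10, SE; edgeR adjusted p 0.00242), Amigo3 (-0.32 ± 0.12) and Scg2 (-0.13 ± 0.04). With late induction 2 were higher, Arl4d (0.37 ± 0.15) and Vgf (0.14 ± 0.05), and 2 lower, Amigo3 (-0.72 ± 0.14) and Plk2 (-0.16 ± 0.05). The medians were -0.07 and -0.08. Over all genes 13% were higher and 12.6% lower with early induction, and 17% and 17.5% with late induction.

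Of 17 upstream signalling genes, 1 was higher and 6 lower with early induction and 2 higher and 9 lower with late induction. The medians were -0.13 and -0.21. Over all genes 13% were higher and 12.6% lower with early induction, and 17% and 17.5% with late induction. The coactivators of the serum response factor, Mkl1 (-0.29 and -0.46) and Mkl2 (-0.20 and -0.26), were lower in both, as was Elk1, its partner factor (-0.22 and -0.32). Mapk3, which encodes the kinase ERK1, was higher in both (0.21 and 0.25), and Mef2c with late induction (0.55).

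In TRAP 30.4% of all genes were higher and 28.8% lower. Later effectors had 0 genes higher and 8 lower of 13, with Arl4d (-0.87 ± 0.10) and Gpr3 (-0.60 ± 0.17) lowest. Other rapid transcription factors had 6 of 16 higher, led by Atf3 (2.31 ± 0.22), Klf2 (1.26 ± 0.27) and Klf4 (1.05 ± 0.25), and 4 lower, led by Egr4 (-0.48 ± 0.06). Feedback regulators had 5 of 13 higher, led by Zfp36 (2.22 ± 0.18) and Rgs2 (1.58 ± 0.07), and 4 lower, led by Spry4 (-0.57 ± 0.09). Upstream signalling had 6 higher and 2 lower of 17. Atf3, at 11.3 to 41.3 CPM in TRAP and 2.53 to 5.67 CPM in the inputs, and Zfp36, at 19.7 to 34.1 and 3.23 to 7.56 CPM, did not overlap between fractions, as was so, with TRAP higher, for 19.6% of all genes.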

How the data were processed

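The data comprised polyA RNA sequencing of 29 hippocampal inputs and 7 TRAP pulldowns. The authors deposited estimated counts per gene, 1 column per library, marked raw per the file headers; 77.4% of the nonzero values were not whole. The submitters' processing notes name DESeq2 and the genome build mm10. Aligner, counting tool and strand handling are not given in the sources used here, and fractional counts can divide reads between related genes. Groups, sexes and animals came from the labels.

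Rounded estimated counts were analysed in R 4.3.3 by edgeR's quasi-likelihood test (version 4.0.16; TMM scaling; low genes removed by filterByExpr, minimum count 10), with Benjamini-Hochberg adjustment over all genes tested. The 29 inputs were fitted together with group and sex, the interaction on the 22 early-induced inputs, and TRAP on 14 libraries with sex. CPM use TMM over all 36 libraries, and log2 CPM a prior count of 2. Standard errors come from the F statistic. Permutation tests were two-sided and coded with numpy 2.4.6, with ranks from scipy 1.17.1. TRAP and input libraries were paired by animal number; their deviations correlated at 0.308 to 0.47 within the 7 pairs, against a median of -0.0856 between different animals.

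The members and lists were chosen with earlier results of these data known. All members are named in every comparison; of other lists, at most the 3 highest and 3 lowest called genes, and of likeness the top 10. Of 60 other list genes, 60 were matched. Alternatives used DESeq2 1.42.0, limma 3.58.1, other scalings, filters, covariates, each sex alone and each library left out in turn. The tests were checked on simulated data.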

Additional observations from a re-analysis of the deposited data

How the results depend on the processing

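Outside the leave-one-out settings, the members kept their call, or stayed uncalled, in 117 of 120 refits of old early-induced against young inputs, 116 of 120 with late induction, all 120 of late against early induction, 88 of 90 between the sexes, all 80 of the interaction and 80 of 90 for TRAP; the changed calls are given with each gene. Genes called over the whole table moved more. With females alone they were 1198 for early induction, 2787 for late induction and 182 for late against early, and with males alone 2395, 1348 and 1. Between late and early induction DESeq2 called 58 genes, a fit of those groups alone 0, and the fit without old early replicates 10 and 11 called 8. Between the sexes DESeq2 called 67, the early-induced groups alone 12 and the fit without young replicates 5 and 6 called 41, and 2 members were higher in males without old early replicates 10 and 11. For the interaction DESeq2 called 23. In TRAP 1 member was higher with upper quartile scaling, with library size and in females alone, and 2 were lower without the sex term and in females alone. These scalings moved the median log2 difference of all genes from -0.02 to -0.17 (upper quartile) and -0.13 (library size) and the share of calls that were higher from 51.4% to 34% and 38.3%. The replicate block by animal called Fosb lower (-0.32) and changed no other member's call. The median r in the young inputs was 0.435 without the 2 farthest libraries. With each library left out in turn, members called higher stayed at 9 with early induction, ranged from 8 to 9 with late induction, stayed at 0 between late and early induction, between the sexes and in the interaction, and ranged from 1 to 2 in TRAP, with 2 to 4 lower. Genes called ranged from 3294 to 4011, 4352 to 5316, 0 to 164, 17 to 32, 0 to 453 and 8150 to 8720 in the same order. The 164 came without old early-induced replicate 5 and the 453 without old early-induced replicate 6. The log2 differences of members ranged over these fits without a change of sign in the early and late age comparisons. The cause of these changes was not tested. Depth limits Egr2 most, with 13 to 48 counts per young library.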
